A study of Mus musculus with 14 samples.

Results

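Tumours collected after 18 days of the BRAF inhibitor PLX4032 were set against the control tumours of a study that followed 1 transplanted mouse melanoma line through treatment. The comparison uses 6 of the 14 tumours in the series, namely both tumours of day 18 and all 4 controls, of which 2 were taken at day 3 and 2 at day 6. SMM102 melanoma cells were injected subcutaneously at 2 sites into each host, a female C57BL/6J mouse aged 6 to 8 weeks, and dosing started at a volume of 150 to 300 mm3. Treated mice received PLX4032 by intraperitoneal injection at 50 mg per kg on 5 days of each week. The series text says that the controls received vehicle, while the sample labels call them untreated. No control was taken at day 18, so the effect of the drug and the effect of the later day cannot be told apart here. The labels do not say whether the day 18 tumours grew in 1 mouse or 2, and all results rest on a single cell line. The p-values thus measure only the spread between the tumours fitted. Other treated tumours of the series were taken at day 3 (2 tumours), day 6 (2 tumours) and day 27 (4 tumours from 2 mice). They are used below to show where day 18 differs from them. They also enter the fit of all 14 tumours, so they help to set the spread in the comparison with controls.

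PLX4032, also called vemurafenib, blocks the kinase BRAF, which in many melanomas carries an activating mutation and drives growth through the kinases MEK and ERK. Genes such as Dusp6, Spry4, Etv4 and Ccnd1 are switched on by this pathway and are commonly read as its output. Melanoma cells placed under the skin grow next to subcutaneous fat, muscle and, in female mice, mammary tissue, and they recruit fibroblasts, vessels and immune cells. White fat cells hold triglyceride in a large droplet coated by perilipin and CIDE proteins, take up fatty acids released by lipoprotein lipase, break fat down again through hormone-sensitive lipase, and secrete hormones such as adiponectin, resistin and adipsin. Whole frozen tumours were measured, so each value mixes all of these cells, and fewer cells of a type and less RNA per cell cannot be told apart.

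Gene expression was read as the signal deposited per gene, a scale derived from TPM, the share of each transcript among all transcripts, whose column sums differ between tumours. The test compared log2(signal + 1) with limma across all 14 tumours, and a gene was called when its Benjamini-Hochberg adjusted p was below 0.05. Values given per tumour are the deposited signal, in the order tumour 1, tumour 2 for day 18 and, where 4 control values stand, day 3 tumours 1 and 2 and then day 6 tumours 1 and 2. A log2 change is the mean of log2(signal + 1) at day 18 minus that over the 4 controls, and it understates the change of low genes. At day 18, 1254 of 15841 genes tested were called (7.92%), of which 858 were higher (5.42%) and 396 lower (2.50%) than in controls. These shares over all genes are the background to the list counts below. The median over all genes tested was a log2 change of 0.07. The share of calls that were higher was 68.4% on the deposited scale, 56.5% after median-of-ratios rescaling and 44.9% after quantile normalisation, so the balance of rises and falls depends on the scaling. With only the 6 compared tumours fitted, 178 genes were called, and of the calls given below with their values 47 were lost and 49 kept. The number of calls was 370 without day 18 tumour 1 and 418 without day 18 tumour 2. Leaving out a control gave 730 for control day 3 tumour 2 and 2021 for control day 6 tumour 1. With any 1 of the 14 tumours left out in turn, 200 of the 1254 genes kept their call, 177 of them higher and 23 lower. The day 18 and control values did not overlap for 6082 genes (38.4%), of which 1246 were called (7.87% of all genes). Between the control days themselves limma called 0 genes, with 886 at an unadjusted p below 0.05 (5.59%), and leaving out control day 6 tumour 1 or 2 gave 7 or 31 calls and leaving out either treated day 3 tumour gave 1.

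The labelled cell line was checked against markers of its lineage. The melanocyte markers Mlana and Dct were not analysed here, and Mitf, the regulator of melanocyte identity, was low in all 6 tumours, with 3.59 and 1.82 at day 18 against 2.76 to 4.73 in controls. Of 13 melanocyte and neural crest genes tested, 2 were called higher at day 18 and 0 lower, with a median log2 change of -0.02. These were the receptor genes Met and Ngfr, which are counted again among the growth factor and receptor genes below. The number called higher was 1 without any 1 of the treated day 27 tumours, and neither call held in every run with 1 tumour left out. The share of all genes called higher was 5.42%. Sox10, another lineage marker, was not called (log2 change 0.84), and its level is not given here. The melanocyte identity of these tumours is thus taken from the label. Ddx3y, a Y-linked gene in tumours grown in female hosts, had 13 and 21.2 at day 18 against 17.4 to 25 in controls, and the groups overlapped. Xist, which is made from the inactive X of female cells, had 41.5 and 30.1 at day 18 against 7.98 to 24.7 in controls (limma adjusted p = 0.065).

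Markers of the tissues beside the tumour did not move together in the day 18 tumours. The summed signal of 12 adipocyte markers was 3244 and 3363 in day 18 tumours 1 and 2, against 25 to 86.5 in controls. The sum of 18 skeletal muscle markers was 69.6 and 2522 in the same day 18 tumours, against 60.3 to 464 in controls, so it was high in tumour 2 and within the control range in tumour 1. The muscle actin gene Acta1 stood at 10.0 and 659 in the day 18 tumours against 10.4 to 111 in controls. Mammary and luminal epithelium markers summed to 33.1 and 101 at day 18 against 2.61 to 7.66 in controls, and without Lcn2, which is also an acute phase gene, to 6.22 and 72.4 at day 18 against 2.5 to 5.15 in controls, a choice made after the values were seen. Epcam, an epithelial adhesion protein, was at 0.279 and 10.9 at day 18 against 0.0683 to 0.699 in controls, again with tumour 2 alone above the controls, while the milk protein gene Csn2 was not analysed here. Keratinocyte and skin markers summed to 61.3 and 115 at day 18 against 144 to 228 in controls, and Krt5 and Krt14 were not analysed here. The adipocyte sum was alike in both day 18 tumours, although several fat genes described below were lower in tumour 1 than in tumour 2, such as Thrsp and Retn. Without day 18 tumour 1, 4 muscle markers were called higher, against 0 in the full comparison. The part of muscle and epithelium in other results was not tested.

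**Figure D1:**
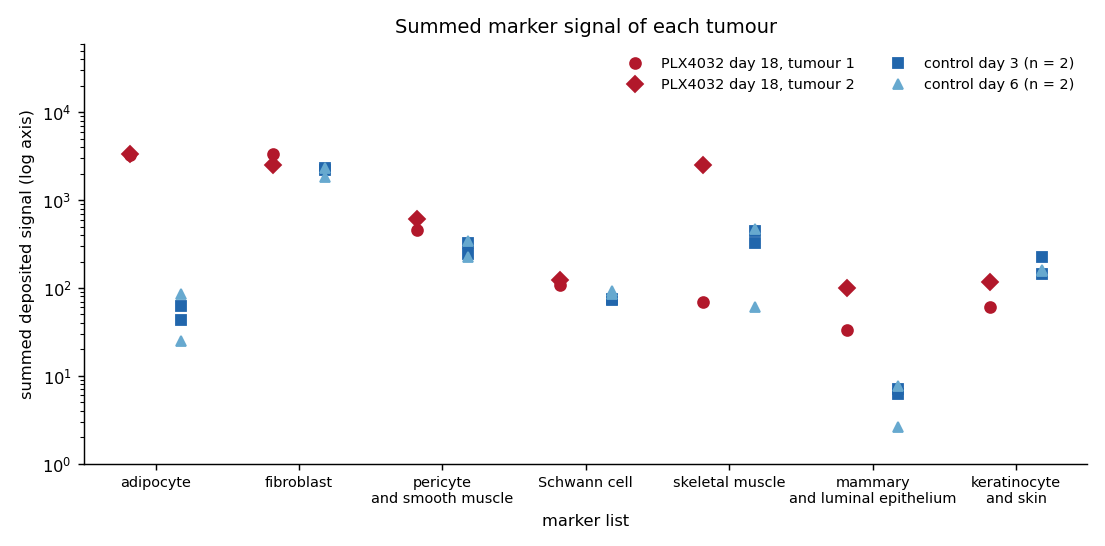
Summed deposited signal (log axis) of 7 marker lists in each of the 2 day 18 tumours (red) and the 4 controls (blue). Adipocyte markers stood far above the controls in both day 18 tumours, whereas muscle markers did so in tumour 2 alone.

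Fat cell genes rose together in both day 18 tumours. All 12 of the 12 adipocyte markers tested rose, with a median log2 change of 5.22 against 0.07 over all genes, and all 12 kept the call with any 1 tumour left out. The carbonic anhydrase gene Car3, one of the most abundant transcripts of fat and slow muscle, had 443 and 609.7 at day 18 against 14.5, 9.49, 10.8 and 0.381 in controls (log2 change 6.18, SE 0.61, limma adjusted p = 0.00021). Genes of fat storage, fat breakdown, fatty acid synthesis, hormones and transcription factors of fat cells were among the rises. Both day 18 tumours lay above all 4 controls for every one of the 12 adipocyte markers.

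Hormones and other secreted proteins of fat cells are described first. Of 10 such genes tested, 8 rose, with a median log2 change of 3.63. Adipoq, Retn and Cfd are also among the 12 adipocyte markers. Several of the fat gene lists that follow share members with those markers too, so the list counts are not independent. Adipoq, at chr16:23146536-23158028 on GRCm38, encodes adiponectin and had 111 and 142 in the day 18 tumours, against 2.51, 0.622, 3.7 and 0.306 in the 4 controls (log2 change 5.70, SE 0.52, limma adjusted p = 0.00012). The lowest day 18 value was thus well above the highest control. Retn, the gene of resistin, had 69 and 155 at day 18 against 0.788, 0.348, 2.08 and 0.317 in controls (log2 change 5.89, SE 0.40, limma adjusted p = 1.6e-05), and the day 18 tumours again did not overlap the controls. Cfd, at chr10:79890853-79892655 on GRCm38, encodes the complement protease adipsin and reached 1737 and 1475 at day 18 against 7.88, 3.76, 27.8 and 1.18 in controls (log2 change 7.80, SE 0.80, limma adjusted p = 0.00026). It had the largest log2 change of the 12 named rises, although the controls themselves ranged widely. Rbp4, a retinol carrier released by fat and liver, had 10.5 and 22.5 at day 18 against 0.0571 to 0.495 in controls (log2 change 3.73, SE 0.23, limma adjusted p = 7.7e-06). Angptl8, which restrains lipoprotein lipase after feeding, had 3.62 and 2.3 at day 18 against 0.0776 to 0.297 in controls (log2 change 1.76, SE 0.18, limma adjusted p = 0.00029). Its level was low in every tumour, but both day 18 tumours lay above the controls. The leptin gene Lep was not analysed here.

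**Figure D2:**
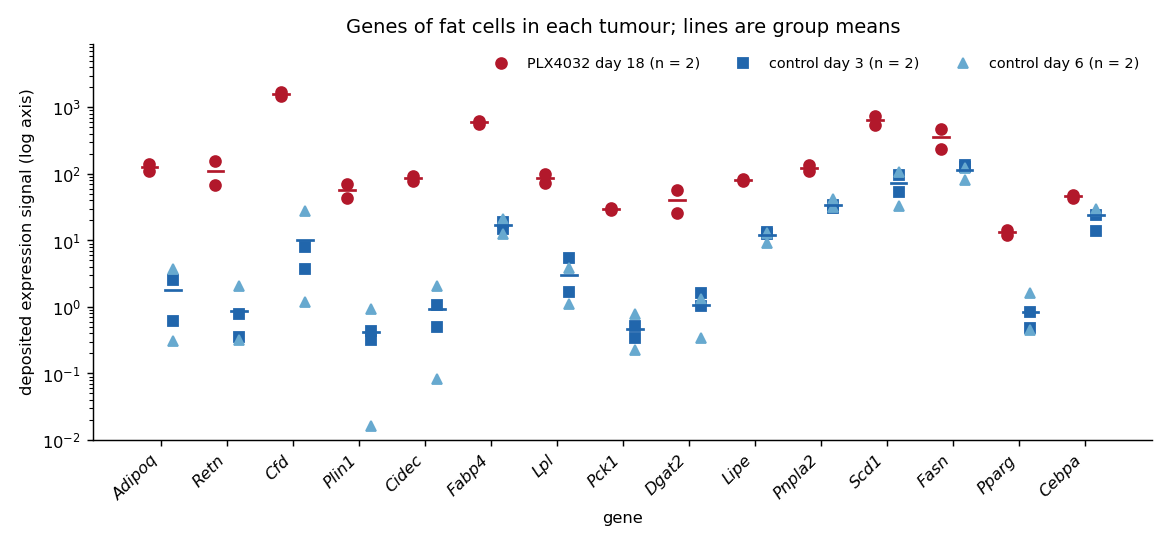
Deposited signal (log axis) of 15 genes of fat cells in the 2 day 18 tumours (red), the 2 day 3 controls (dark blue) and the 2 day 6 controls (light blue), with lines at the mean of the day 18 tumours and of all 4 controls. For each of the 15 genes both day 18 tumours lie above the 4 controls.

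Among lipid droplet proteins, those of fat cells showed the large changes. Of 10 tested, 5 rose, namely Plin1, Plin4, Cidec, Fitm2 and Bscl2, with a list median of 0.73. Plin1, the perilipin that coats the droplets of fat cells and gates access of lipases, had 43.2 and 71.2 in the day 18 tumours against 0.441, 0.323, 0.923 and 0.016 in controls (log2 change 5.35, SE 0.30, limma adjusted p = 5.8e-06). Plin4, another perilipin of fat cells, had 74.5 and 49.8 at day 18 against 0.196 to 2.06 in controls (log2 change 5.05, limma adjusted p = 4e-05). Cidec, which fuses small droplets into large ones, had 78.8 and 93.1 at day 18 against 0.0835 to 2.03 in controls (log2 change 5.60, limma adjusted p = 6.9e-05). All 3 were nearly absent from the controls and high in both day 18 tumours. Plin2, the perilipin that most cell types use, was not called, with 171 and 148 at day 18 against 116 to 146 in controls (log2 change 0.29, limma adjusted p = 0.13). Fitm2, an endoplasmic reticulum protein needed to form droplets, rose by less, with 10.9 and 11.5 at day 18 against 5.59 to 5.78 in controls (log2 change 0.87, limma adjusted p = 0.0013).

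The 250 bases before the start sites of Plin1 and Adipoq are shown because these are the droplet coat and the hormone that define fat cells, and because members of the C/EBP family of factors, which rise early in fat cell formation, bind DNA of the form TTGCNNAA. The letters TTGCNNAA, searched on both strands in the 300 bases around each start site that RefSeq gives for GRCm38.p6, occurred in 10.8% of 32544 promoters and in a promoter of 12.2% of 27025 genes. Among 48 fat genes that rose, 33 matched a promoter and 6 of them (18.2%) held these letters, namely Angptl8, Cidec, Gpam, Plin1, Pparg and Rbp4. Capitals mark the letters TTGCNNAA in the sequences. The Plin1 window is chr7:79732777-79733026 on the minus strand and holds 2 matches, and the Adipoq window is chr16:23146286-23146535 on the plus strand and holds 0. A second annotation, GENCODE, places the Plin1 gene at chr7:79720218-79732903, so by that annotation part of the Plin1 window lies inside the gene. All of these are matches of letters in a short window and say nothing of binding.
Plin1: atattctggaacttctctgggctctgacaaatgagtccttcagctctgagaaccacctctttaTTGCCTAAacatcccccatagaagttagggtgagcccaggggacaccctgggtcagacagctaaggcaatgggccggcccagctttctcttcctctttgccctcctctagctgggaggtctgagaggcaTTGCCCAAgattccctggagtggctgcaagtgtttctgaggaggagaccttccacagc
Adipoq: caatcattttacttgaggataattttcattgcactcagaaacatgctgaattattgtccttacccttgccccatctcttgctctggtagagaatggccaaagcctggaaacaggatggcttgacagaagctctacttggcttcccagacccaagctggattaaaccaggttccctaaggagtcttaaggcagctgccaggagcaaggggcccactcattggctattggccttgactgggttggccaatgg

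Some genes of fatty acid uptake and triglyceride synthesis rose. Of 10 uptake and handling genes, 6 rose, with a median log2 change of 1.62. Fabp4, the fatty acid carrier of fat cells and macrophages, had 559 and 630.0 at day 18 against 18.9, 14.8, 20.9 and 12.7 in controls (log2 change 5.08, SE 0.31, limma adjusted p = 7e-06). Lpl, the lipase that frees fatty acids from blood lipoproteins, had 74.3 and 98.5 at day 18 against 1.09 to 5.54 in controls (log2 change 4.56, SE 0.36, limma adjusted p = 4.9e-05). Cd36, a fatty acid transporter, had 52.3 and 66.7 at day 18 against 2.34 to 9.39 in controls (log2 change 3.52, SE 0.42, limma adjusted p = 0.00079). In all 3 both day 18 tumours exceeded every control. Pck1, which supplies the glycerol backbone in fat cells, had 31.3 and 28.8 at day 18 and stayed below 1 in all controls (log2 change 4.42, limma adjusted p = 3.6e-06). Gpd1, a second enzyme of glycerol phosphate, had 24.9 and 55.2 at day 18 and stayed near 1 in all controls (log2 change 4.25, limma adjusted p = 9e-06). Of 7 triglyceride synthesis enzymes, 5 rose (1 without day 18 tumour 2 and 3 leaving out day 18 tumour 1). Dgat2, which adds the last acyl chain, had 25.8 and 56.7 at day 18 against 0.345 to 1.61 in controls (log2 change 4.28, SE 0.35, limma adjusted p = 5.6e-05), while the other 4 that rose, Gpam, Agpat2, Dgat1 and Agpat9, had log2 changes from 0.78 to 0.94.

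Genes of lipases and their control rose as well, in 7 of 10 genes tested, with a median log2 change of 1.51. Lipe, the hormone-sensitive lipase, had 78.6 and 84.2 at day 18 against 13.3, 12.3, 12.8 and 9.05 in controls (log2 change 2.69, SE 0.16, limma adjusted p = 5.9e-06). Pnpla2, the lipase ATGL that starts triglyceride breakdown, had 112 and 138 at day 18 against 34.1, 30.5, 41.7 and 31.8 in controls (log2 change 1.83, SE 0.15, limma adjusted p = 6.9e-05). G0s2, an inhibitor of Pnpla2, had 50.9 and 28.8 at day 18 against 0.695 to 2.87 in controls (log2 change 3.72, limma adjusted p = 0.0001). The lipase and its inhibitor were thus both higher in each day 18 tumour. Adrb3, the beta-3 adrenergic receptor of fat cells, had 16.6 and 26.5 at day 18 against 0.945 to 1.78 in controls (log2 change 3.31, limma adjusted p = 0.00019). Mgll, which releases the last fatty acid, had 16.5 and 23.5 at day 18 against 1.11 to 5.12 in controls (log2 change 2.73, limma adjusted p = 0.0028). Each of these 5 genes had both day 18 tumours above all controls and kept its call with any 1 tumour left out.

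Fatty acid synthesis genes rose in 8 of 14 cases (5 without day 18 tumour 2), with a median log2 change of 1.22. Scd1, the desaturase that makes oleate, had 548 and 756 at day 18 against 53.8, 95.3, 32.5 and 108 in controls (log2 change 3.28, SE 0.39, limma adjusted p = 0.00079). Fasn, the fatty acid synthase, had 239 and 470.1 at day 18 against 128, 135, 81.9 and 121 in controls (log2 change 1.54, SE 0.27, limma adjusted p = 0.0076). Unlike the fat cell markers, both genes had a sizeable level in the controls too. Thrsp, a lipogenic protein of fat and liver, had 20.1 and 74.2 at day 18 against 0.0394 to 0.566 in controls (log2 change 5.03, limma adjusted p = 4.9e-05). Mlxipl, which encodes the glucose-sensing factor ChREBP, had 10.1 and 10.7 at day 18 against 0.285 to 1.05 in controls (log2 change 2.88, limma adjusted p = 1.7e-05). Pcx, pyruvate carboxylase, had 6.74 and 33.5 at day 18 against 0 to 0.556 in controls (log2 change 3.76, limma adjusted p = 0.002), where day 18 tumour 2 was the higher. Cholesterol synthesis, which shares factors with fatty acid synthesis, had 0 of 22 genes called higher or lower and a median of 0.03, but the number called lower was 2 without control day 6 tumour 1. The summed signal of the list was 805 and 1037 at day 18 against 1009, 1365, 299 and 1404 in controls. Fasn was no longer called without day 18 tumour 2 (limma adjusted p = 0.074).

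Transcription factors of fat cells rose in 5 of 11 cases (2 without day 18 tumour 2 and 3 leaving out day 18 tumour 1), namely Pparg, Klf15, Cebpa, Ebf1 and Ebf2, and none fell (1 without day 18 tumour 2, control day 3 tumour 1, control day 6 tumour 1 or either treated day 6 tumour). Pparg, the master regulator of fat cell formation, had 14.5 and 12.3 at day 18 against 0.831, 0.489, 1.64 and 0.454 in controls (log2 change 3.00, SE 0.33, limma adjusted p = 0.00051). Klf15, a factor of mature fat, had 3.82 and 4.78 at day 18 against 0.214 to 0.774 in controls (log2 change 1.95, SE 0.19, limma adjusted p = 0.00022). Cebpa, the partner of Pparg in fat cell formation, had 47.9 and 43.9 at day 18 against 13.8 to 29.7 in controls (log2 change 0.96, SE 0.19, limma adjusted p = 0.013). The Cebpa level was already sizeable in controls. Insulin-response genes rose in 3 of 10 cases, and these were Pnpla3, Tusc5 and Slc2a4, while none fell (1 without control day 3 tumour 1 or either treated day 6 tumour and 2 leaving out control day 6 tumour 1). Slc2a4, the insulin-driven glucose transporter GLUT4, had 4.26 and 11.4 at day 18 against 0.0901 to 0.936 in controls (log2 change 2.57, limma adjusted p = 0.00083). Of 4 genes of heat-producing fat tested, 1 rose. It was Cox8b, a respiratory subunit of muscle and brown fat, with 14.2 and 23 at day 18 against 0.236 to 3.97 in controls (log2 change 2.81, limma adjusted p = 0.0085). The brown fat gene Ucp1 was not analysed here. Cebpa was no longer called without either day 18 tumour (limma adjusted p from 0.069 to 0.12). Cox8b was no longer called without day 18 tumour 2 (limma adjusted p = 0.086).

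Acute phase genes rose as well. Of 7 granule and acute phase genes tested, 6 rose, with a median log2 change of 3.26. Hp, which encodes haptoglobin and is made by liver and fat, had 1044 and 987 at day 18 against 17.6, 18.3, 54.3 and 2.04 in controls (log2 change 6.02, SE 0.83, limma adjusted p = 0.002). Lrg1, a leucine-rich glycoprotein of inflammation, had 182 and 148 at day 18 against 5.27 to 27.6 in controls (log2 change 3.90, SE 0.50, limma adjusted p = 0.0012). The controls of both genes differed several-fold among themselves, yet none came near the day 18 values. Steap4, a metalloreductase of fat cells, had 33.6 and 33.3 at day 18 against 1.33 to 5.22 in controls (log2 change 3.26, SE 0.31, limma adjusted p = 0.00015). Lcn2, the iron-siderophore binding lipocalin, had 26.8 and 28.3 at day 18 against 0.117 to 3.96 in controls (log2 change 3.50, SE 0.55, limma adjusted p = 0.0046). All 4 were higher in both day 18 tumours than in any control and kept their calls with any 1 tumour left out. Saa3, a serum amyloid A gene, was not called, with 319 and 207 at day 18 against 74.1, 80.9, 88.2 and 3.29 in controls (log2 change 2.72, limma adjusted p = 0.11), and 1 day 6 control was far below the others. Apoc1, an apolipoprotein of liver and macrophages, had 208 and 67.2 at day 18 against 0.427, 0.528, 16.1 and 0.606 in controls (log2 change 5.42, limma adjusted p = 0.0022). Cyp2e1, an ethanol-oxidising cytochrome of liver and fat, had 47.7 and 49.1 at day 18 and stayed below 1 in controls (log2 change 5.40, limma adjusted p = 5.8e-06).

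A pair of major urinary protein genes was among the 12 largest rises. These lipocalins carry pheromones and are secreted by liver, with lower levels in fat and mammary tissue. Mup18 had 75.1 and 42.7 at day 18 against 0, 0.243, 0.799 and 0 in controls (log2 change 5.56, limma adjusted p = 1.3e-05), with 2 of the controls listed at 0. Mup11 had 69 and 104 at day 18 against 6.73, 1.21, 0.498 and 0.273 in controls (log2 change 5.17, limma adjusted p = 8.7e-05). The family consists of near copies: of all 31-base words in the transcripts of Mup18 and Mup11, 93.1% and 83.3% occur in transcripts of other genes, so which member gave the signal is uncertain. Wfdc21, a small secreted antiprotease-like protein, had 123 and 77.5 at day 18 against 0 to 4.49 in controls (log2 change 5.56, limma adjusted p = 0.00017), and 0% of its words were shared.

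**Figure D3:**
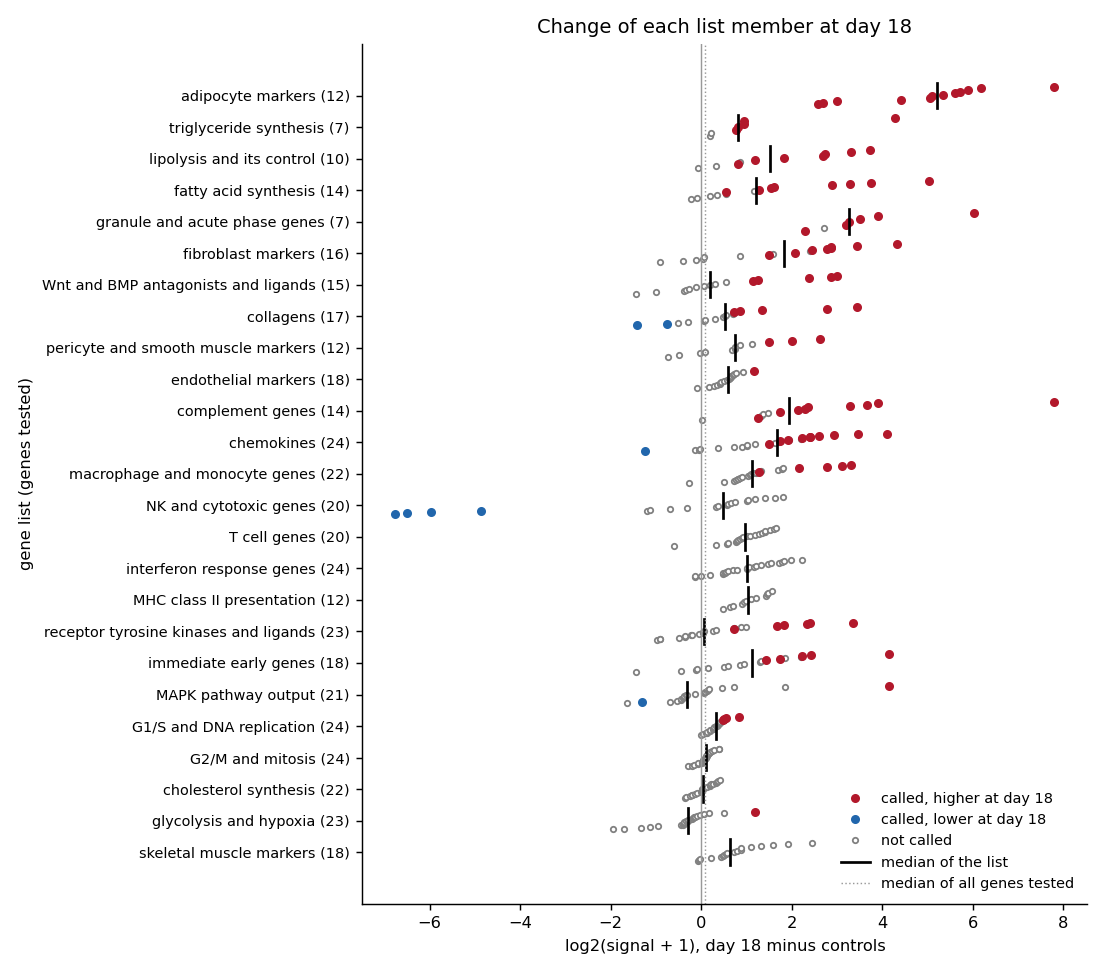
Change of each tested member of 25 gene lists, day 18 minus controls, on the log2(signal + 1) scale, with called genes filled, list medians as black bars and the median of all genes as a dotted line. The adipocyte markers and acute phase genes lie to the right, 4 granzymes lie alone at the far left, and the T cell, interferon and mitosis lists hold no called gene.

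Several fibroblast genes rose, beside 5.42% of all genes called higher. Of 16 fibroblast markers, 8 rose (4 without day 18 tumour 1), with a median log2 change of 1.82, and none fell (1 without control day 3 tumour 1 or control day 6 tumour 1). Clec3b, which encodes tetranectin, had 56.6 and 39.7 at day 18 against 3.06, 0.536, 2.49 and 0.527 in controls (log2 change 4.33, SE 0.48, limma adjusted p = 0.00049). Dpt, the gene of the matrix protein dermatopontin, had 162 and 104 at day 18 against 20.6, 30.3, 21.1 and 21.3 in controls (log2 change 2.44, SE 0.30, limma adjusted p = 0.0009). Lum, a collagen-binding proteoglycan, had 65.8 and 71.3 at day 18 against 8.45 to 32.1 in controls (log2 change 2.07, SE 0.25, limma adjusted p = 0.00092). In these 3 genes no control reached the day 18 values. The general fibroblast genes Dcn and Pdgfra were not called, with Dcn at 459.6 and 382 at day 18 against 160.5 to 332 in controls (log2 change 0.85, limma adjusted p = 0.056) and Pdgfra at 97.3 and 92.7 at day 18 against 135 to 264 in controls (log2 change -0.92, limma adjusted p = 0.055). Pdgfra, the platelet-derived growth factor receptor of fibroblasts, was lower in both day 18 tumours than in all controls.

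Of 17 collagens tested, 5 rose (1 without day 18 tumour 1 and 3 leaving out day 18 tumour 2, control day 3 tumour 2, control day 6 tumour 2 or treated day 27 tumour 1), namely Col1a1, Col3a1, Col5a1, Col14a1 and Col15a1, while Col16a1 and Col18a1 fell (0 without day 18 tumour 1 and 1 leaving out day 18 tumour 2). Over all genes 5.42% were called higher and 2.50% lower. Col15a1, a collagen of basement membrane zones in fat and vessels, had 109 and 84.4 at day 18 against 8.55 to 17.2 in controls (log2 change 2.77, SE 0.36, limma adjusted p = 0.0013). Col1a1, the main fibrillar collagen, had 1198 and 1050.0 at day 18 against 361 to 605 in controls (log2 change 1.33, SE 0.24, limma adjusted p = 0.0088). Tnxb, a tenascin that spaces collagen fibrils, had 16.3 and 13.7 at day 18 against 0.186 to 0.706 in controls (log2 change 3.41, SE 0.26, limma adjusted p = 3.8e-05). Col4a6, a chain of type IV collagen and one of the falls, had 1.93 and 1.89 at day 18 against 14.5, 10.1, 11.9 and 20.5 in controls (log2 change -2.34, SE 0.42, limma adjusted p = 0.0084). Lama5, a laminin chain, had 3.91 and 7.67 at day 18 against 37, 76.7, 14.3 and 54.7 in controls (log2 change -2.61, SE 0.55, limma adjusted p = 0.02). The controls of Lama5 varied several-fold. Col18a1, which holds the endostatin fragment, had 163 and 191 at day 18 against 377 to 577 in controls (log2 change -1.42, SE 0.24, limma adjusted p = 0.0073). Sned1, a matrix protein with fibronectin and EGF-like domains, had 18.3 and 12.3 at day 18 against 52.2 to 151 in controls (log2 change -2.52, SE 0.40, limma adjusted p = 0.0046). In all 4 of these falling genes both day 18 tumours lay below every control. Col18a1 and Col1a1 were no longer called without day 18 tumour 1 (limma adjusted p from 0.08 to 0.09). Col4a6 was no longer called without either day 18 tumour (limma adjusted p from 0.064 to 0.069). Lama5 was no longer called without either day 18 tumour or control day 3 tumour 2 (limma adjusted p from 0.053 to 0.18). Sned1 was no longer called without day 18 tumour 2 (limma adjusted p = 0.055).

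Some secreted antagonists of Wnt signalling rose. Of 15 Wnt and BMP antagonists and ligands, 5 rose (3 without either day 18 tumour), with a median log2 change of 0.20, and the number that fell was 1 without control day 6 tumour 1 and 3 leaving out control day 3 tumour 1, against 0 in all. The 5 were Sfrp1, Sfrp2, Sfrp4, Sfrp5 and Chrdl1, beside 5.42% of all genes called higher. The Sfrp genes encode frizzled-like decoys for Wnt ligands and Chrdl1 a decoy for BMPs. Sfrp1 had 24.9 and 18.2 at day 18 against 9.14, 6.3, 2.1 and 0.434 in controls (log2 change 2.39, SE 0.30, limma adjusted p = 0.0011). Sfrp2 had 49.3 and 45.8 at day 18 against 10.9, 8.75, 4.38 and 1.14 in controls (log2 change 3.00, SE 0.41, limma adjusted p = 0.002). For both, the day 18 tumours were alike and the controls ranged widely below them. Bmp2, a ligand, was lower in both day 18 tumours but not called, with 22.2 and 42.7 at day 18 against 51.6 to 156 in controls (log2 change -1.44, limma adjusted p = 0.058).

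Some nerve and mural markers rose, and the endothelial list held 1 call, beside 5.42% of all genes called higher. Of 9 Schwann cell markers 3 rose (1 without day 18 tumour 2), among them Mbp and Scn7a. Scn7a, a sodium channel of glia and nerve sheaths, had 4.66 and 5.14 at day 18 against 0.0411 to 0.638 in controls (log2 change 2.21, SE 0.20, limma adjusted p = 8.8e-05). Both day 18 tumours lay above all controls. Of 12 pericyte and smooth muscle markers 3 rose, namely Tagln, Myh11 and Acta2 (0 without day 18 tumour 2 or control day 3 tumour 2, 1 leaving out day 18 tumour 1 or treated day 27 tumour 1 and 6 leaving out control day 6 tumour 1), and none fell (1 without control day 6 tumour 1 or either treated day 6 tumour). Tagln had 85.4 and 112 at day 18 against 23.8, 9.5, 39.4 and 5.45 in controls (log2 change 2.61, SE 0.59, limma adjusted p = 0.026), and the controls differed up to several-fold among themselves. Of 18 endothelial markers 1 rose, the angiopoietin receptor gene Tek (0 without either day 18 tumour or control day 3 tumour 2, 2 leaving out control day 3 tumour 1 or either treated day 6 tumour and 8 leaving out control day 6 tumour 1), although 17 had a positive change and the list median was 0.58. Pecam1, the adhesion molecule of vessel walls, had 34.5 and 32.7 at day 18 against 12.9 to 31.5 in controls (log2 change 0.73, limma adjusted p = 0.17). Tagln was no longer called without either day 18 tumour or control day 3 tumour 2 (limma adjusted p from 0.052 to 0.13).

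The deepest of the 12 named falls were in 4 granzymes. Granzymes are proteases that cytotoxic lymphocytes inject into target cells through pores formed by perforin, and in the mouse Gzmb to Gzmg lie side by side on chromosome 14. Gzmd, Gzme, Gzmf and Gzmg fell almost to nothing at day 18, while the neighbouring Gzmc and Gzmb did not pass the test. All 4 calls held with any 1 tumour left out. The 20 NK and cytotoxic genes tested held no other call (1 higher without day 18 tumour 2 or either treated day 6 tumour), and their median log2 change was 0.47.

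Gzmg was listed at 0 in both day 18 tumours, against 85.1, 88, 129 and 137 in the controls (log2(signal + 1) difference -6.76, SE 0.43, limma adjusted p = 9.1e-06). Gzmf had 0.0644 and 0.156 at day 18 against 69.7, 87.3, 141 and 116 in controls (log2 change -6.51, SE 0.45, limma adjusted p = 1.7e-05). Gzmd had 0.243 and 0.342 at day 18 against 69.7, 68.9, 87.3 and 96.8 in controls (log2 change -5.97, SE 0.51, limma adjusted p = 6.9e-05). In these 3 genes all 4 controls had a sizeable level and both day 18 tumours were at or close to 0. Gzme had 0.0646 and 0.313 at day 18 against 28.5, 31.2, 33 and 42.5 in controls (log2 change -4.86, SE 0.54, limma adjusted p = 0.00051). Gzmc, which was looked at after its neighbours' values were seen, had 18.7 and 37.7 at day 18 against 56.4, 45.9, 74.8 and 66.8 in controls (log2 change -1.14, limma adjusted p = 0.26). It was lower in both day 18 tumours than in any control but stayed well above 0. Perforin, Prf1, had 4.92 and 2.33 at day 18 against 9.24, 8.6, 9.01 and 10.3 in controls (log2 change -1.21, limma adjusted p = 0.16), and Gzmb, chosen after its values were seen, had 24.7 and 7.74 at day 18 against 14.7 to 20.5 in controls (log2 change -0.32, limma adjusted p = 0.8).

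The granzymes resemble each other, which bears on how their signal was assigned. Of the 31-base words in their transcripts, the share found in transcripts of other genes was 38.2% for Gzmd, 42.1% for Gzme, 22.8% for Gzmf, 33.8% for Gzmg and 14.8% for Gzmc. Most words of each transcript are thus its own. In order along chromosome 14 on GRCm38, the transcribed regions are chr14:56117626-56120625 for Gzme, chr14:56129556-56132608 for Gzmd, chr14:56156582-56159579 for Gzmg, chr14:56205263-56211417 for Gzmf, chr14:56231441-56234656 for Gzmc and chr14:56258838-56262260 for Gzmb, so the 4 that fell are neighbours and the 2 that were not called follow them.

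A stretch of 88 bases is shown because 4 of the 5 neighbours fell and their upstream sequences resemble each other. It lies a short way before the start sites, at a distance that differs between the 5 genes. RefSeq places all 5 on the minus strand of GRCm38.p6. The windows are chr14:56132608-56132695 for Gzmd, chr14:56120641-56120728 for Gzme, chr14:56211443-56211530 for Gzmf, chr14:56159610-56159697 for Gzmg and chr14:56234668-56234755 for Gzmc. Pairs of windows were 92% to 97.7% identical. Each window was cut to start and end at matching letters, so this identity is partly fixed by the choice of window. Capitals mark the letters TGACGTCA, the cyclic AMP response element, searched on both strands and present in 1.8% of all promoters. Gzmf, Gzmg and Gzmc each hold it once, whereas Gzmd and Gzme do not, so these letters do not separate the genes that fell from Gzmc.
Gzmd: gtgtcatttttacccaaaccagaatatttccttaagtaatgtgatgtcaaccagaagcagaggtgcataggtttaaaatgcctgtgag
Gzme: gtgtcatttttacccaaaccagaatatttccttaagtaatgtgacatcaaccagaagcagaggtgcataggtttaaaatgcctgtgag
Gzmf: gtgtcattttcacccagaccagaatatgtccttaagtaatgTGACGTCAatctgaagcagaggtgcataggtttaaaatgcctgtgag
Gzmg: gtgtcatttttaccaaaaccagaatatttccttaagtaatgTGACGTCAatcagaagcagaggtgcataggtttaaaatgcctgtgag
Gzmc: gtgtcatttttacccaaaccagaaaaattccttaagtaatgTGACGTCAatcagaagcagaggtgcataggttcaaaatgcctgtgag

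The same 4 genes were also low at day 27, whereas treated tumours of days 3 and 6 held them at high levels. Gzmd had 130.3 and 618 at treated day 3, 30.6 and 53.7 at day 6, 0.243 and 0.342 at day 18 and 0.489 to 2.4 over the 4 tumours of day 27. Gzmf had 152 and 614 at treated day 3, 45.5 and 61.2 at day 6, 0.0644 and 0.156 at day 18 and 0.455 to 2.03 at day 27. Day 18 was lower than treated day 6 for Gzmd (log2 difference -5.01, limma adjusted p = 0.0012) and for Gzmf (log2 difference -5.60, limma adjusted p = 0.00025). Against day 27 the difference did not pass the test for Gzmd (log2 difference -0.88, limma adjusted p = 0.28) or for Gzmf (log2 difference -1.05, limma adjusted p = 0.16).

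**Figure D4:**
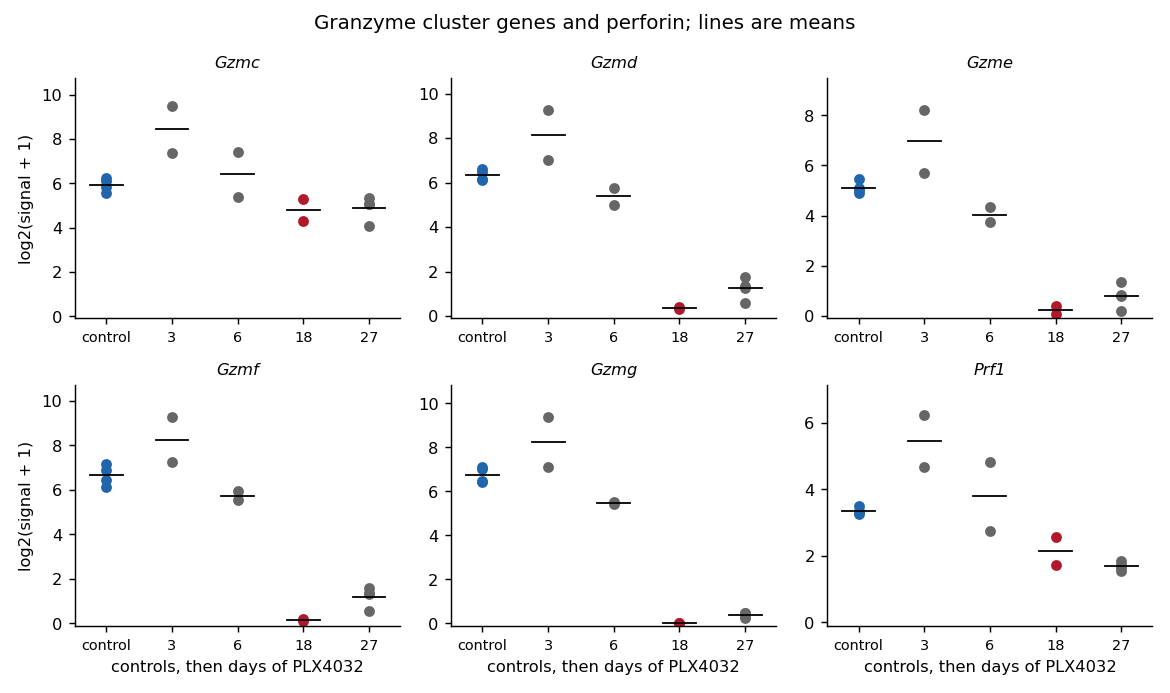
Level of 5 granzyme cluster genes and perforin on the log2(signal + 1) scale in the 4 controls and at treated days 3, 6, 18 (red) and 27, each point being 1 tumour and each line a mean. Gzmd, Gzme, Gzmf and Gzmg are near 0 at days 18 and 27, while Gzmc keeps a clear level in every tumour.

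Other proteases of granules also fell. Mcpt1 and Mcpt2 encode mucosal mast cell proteases and lie next to the granzymes, at chr14:56017971-56020384 and chr14:56042041-56044642 on GRCm38. Mcpt1 had 2.07 and 1.81 at day 18 against 41.7, 27.9, 3.28 and 32.9 in controls (log2 change -2.81, SE 0.64, limma adjusted p = 0.026). Mcpt2 had 5.77 and 6.49 at day 18 against 59.3, 21.1, 32.5 and 52.8 in controls (log2 change -2.47, SE 0.61, limma adjusted p = 0.035). Both day 18 tumours lay below all controls, by little in Mcpt1, where 1 day 6 control was low. The mast cell list itself showed 0 calls in 11 genes and a median of -0.28. Mcpt1 was no longer called without either day 18 tumour or either control day 3 tumour (limma adjusted p from 0.055 to 0.14). Mcpt2 was no longer called without either day 18 tumour, control day 6 tumour 2 or treated day 27 tumour 2 (limma adjusted p from 0.053 to 0.2).

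T cell, interferon and antigen presentation genes gave no calls. Of 20 T cell genes 0 were called, of 24 interferon response genes 0, of 16 MHC class I genes 0 and of 12 MHC class II genes 0. Their medians were nonetheless positive, at 0.96, 1.01, 0.80 and 1.04 in that order, against 0.07 over all genes. Cd3e, a chain of the T cell receptor complex, had 10.9 and 4.71 at day 18 against 3.34, 1.37, 2.28 and 1.05 in controls (log2 change 1.52, limma adjusted p = 0.084). Irf7, an interferon-induced factor, had 379 and 146 at day 18 against 100.2, 18.2, 101 and 31.6 in controls (log2 change 2.23, limma adjusted p = 0.08). In both genes the day 18 tumours lay above all controls, tumour 1 more so than tumour 2. Ptprc, the pan-leukocyte marker CD45, had 53.6 and 29.6 at day 18 against 6.01 to 29.2 in controls (log2 change 1.23, limma adjusted p = 0.18). These counts moved when 1 tumour was left out. T cell calls were 1 without control day 6 tumour 1 or either treated day 6 tumour, interferon calls 1 without either treated day 6 tumour, 2 leaving out control day 6 tumour 1 and 4 leaving out control day 3 tumour 1, MHC class I calls 2 without either treated day 6 tumour and 3 leaving out control day 6 tumour 1 and MHC class II calls 3 without control day 6 tumour 1, in each case higher at day 18.

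Macrophage genes rose in 5 of 22 cases (2 without day 18 tumour 1, 3 leaving out day 18 tumour 2, control day 3 tumour 2 or treated day 27 tumour 2 and 10 leaving out control day 6 tumour 1), with a median log2 change of 1.13. The 5 were Timd4, Lyve1, Folr2, Ly6c2 and Cd163, beside 5.42% of all genes called higher. All but Ly6c2 mark macrophages resident in tissue. Lyve1, a hyaluronan receptor of such macrophages and of lymphatic vessels, had 19.6 and 19 at day 18 against 1.19, 0.493, 4.31 and 0.0467 in controls (log2 change 3.30, SE 0.48, limma adjusted p = 0.0027). Timd4, a receptor for dying cells, had 2.2 and 1.47 at day 18 against 0.0212 to 0.259 in controls (log2 change 1.27, SE 0.15, limma adjusted p = 0.00065). Folr2, a folate receptor, had 91.9 and 59.3 at day 18 against 4.43 to 23.1 in controls (log2 change 2.77, SE 0.51, limma adjusted p = 0.01). These genes were higher in both day 18 tumours than in any control. The general markers Csf1r and Adgre1 were not called, with Adgre1 at 80.4 and 43.5 at day 18 against 34.9, 8.77, 29.8 and 7.08 in controls (log2 change 1.81, limma adjusted p = 0.12). Of 12 genes of alternative activation, 4 rose (2 without either day 18 tumour and 8 leaving out control day 6 tumour 1), and these were Retnla, Cd209d, Cd209f and Ccl22. Retnla, a resistin-like protein induced by interleukin 4, had 20.2 and 16.1 at day 18 against 0.901, 0.847, 0.247 and 0 in controls (log2 change 3.72, SE 0.33, limma adjusted p = 0.0001). Folr2 was no longer called without day 18 tumour 1 (limma adjusted p = 0.11).

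Complement and chemokine genes were among the rises, beside 5.42% of all genes called higher. Of 14 complement genes 9 rose, with a median log2 change of 1.94. Most of these calls were lost without day 18 tumour 1. Among the 9 is the adipsin gene Cfd, already counted with the fat genes, and only the Cfd call held with any 1 tumour left out. C3, the central component, had 355 and 203 at day 18 against 39.7, 23.9, 24.1 and 3.02 in controls (log2 change 3.91, SE 0.61, limma adjusted p = 0.0041). C4b had 253 and 131 at day 18 against 5.68 to 31.5 in controls (log2 change 3.66, SE 0.57, limma adjusted p = 0.0041), but 48.3% of its 31-base words occur in C4a. Of 24 chemokines 10 rose (3 without day 18 tumour 1, 5 leaving out control day 3 tumour 2 and 6 leaving out day 18 tumour 2) and 1 fell. Cxcl14, a chemokine of skin and fat, had 136 and 112 at day 18 against 12.4, 14.1, 8.23 and 0.467 in controls (log2 change 4.11, SE 0.60, limma adjusted p = 0.0028). Ccl11, which draws eosinophils, had 134 and 94.9 at day 18 against 11.5, 5.44, 12.4 and 9.66 in controls (log2 change 3.46, SE 0.47, limma adjusted p = 0.0017). Ccl19, which guides T cells and dendritic cells, had 12.1 and 5.23 at day 18 against 0.0929 to 1.71 in controls (log2 change 2.60, SE 0.39, limma adjusted p = 0.0034). In these 3 no control reached a day 18 value. The one that fell was Cx3cl1, the ligand of the monocyte receptor CX3CR1, with 16 and 17.4 at day 18 against 18.7 to 61.7 in controls (log2 change -1.25, limma adjusted p = 0.036). Ighm, the heavy chain of IgM, had 166 and 31.2 at day 18 against 2.59 to 9.8 in controls (log2 change 3.52, limma adjusted p = 0.0092), whereas the B cell receptor gene Cd79a had 2.00 and 1.02 at day 18 against 0.443 to 1.34 in controls. C3, C4b and Ighm were no longer called without day 18 tumour 1 (limma adjusted p from 0.055 to 0.097). Cx3cl1 was no longer called without either day 18 tumour, either control day 3 tumour or treated day 27 tumour 1, 2 or 4 (limma adjusted p from 0.05 to 0.21).

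Output genes of the drug's own pathway were called at a share close to the 7.92% of all genes. Of 21 MAPK output genes, 1 rose and 1 fell, with a median log2 change of -0.32. The number that rose was 2 without either treated day 3 tumour, and the number that fell was 0 without day 18 tumour 1 and 2 leaving out day 18 tumour 2, control day 3 tumour 1, either control day 6 tumour or treated day 27 tumour 3. Dusp6, the phosphatase that feeds back on ERK, had 142 and 161 at day 18 against 172, 158, 112 and 119.5 in controls (log2 change 0.13, limma adjusted p = 0.62). Ccnd1, cyclin D1, had 329 and 423 at day 18 against 488, 614, 331 and 478 in controls (log2 change -0.32, limma adjusted p = 0.26). Etv4, an ETS factor, had 59 and 79.5 at day 18 against 90.9, 137, 60.7 and 90.8 in controls (log2 change -0.41, limma adjusted p = 0.27). The day 18 and control values overlapped in these 3 genes. Etv1, a related factor, fell, with 20.3 and 24.3 at day 18 against 47.3 to 73.4 in controls (log2 change -1.31, SE 0.22, limma adjusted p = 0.0059). The rise was in Fos, a factor that ERK and other signals induce within minutes, with 150.0 and 68.2 at day 18 against 5.00, 3.64, 8.91 and 2.97 in controls (log2 change 4.15, SE 0.40, limma adjusted p = 0.00016). The targeted kinase gene Braf had 5.35 and 5.95 at day 18 against 5.2 to 5.99 in controls, which overlapped. Against treated day 3, 11 of the 21 output genes were higher at day 18 and 0 lower, beside 19.2% of all genes called higher and 15.1% lower. Against treated day 6 none was called, beside 1.51% of all genes. Etv1 was no longer called without day 18 tumour 1 (limma adjusted p = 0.069).

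Immediate early genes rose beyond Fos, in 5 of 18 cases including Fos (1 without day 18 tumour 1), with a median log2 change of 1.12. The others were Egr2, Zfp36, Klf2 and Btg2, beside 5.42% of all genes called higher. Egr2 had 14.8 and 7.09 at day 18 against 0.935 to 2.18 in controls (log2 change 2.22, SE 0.35, limma adjusted p = 0.0047). Egr1, which responds to the same signals, missed the threshold with 99.9 and 78.3 at day 18 against 9.71 to 36.2 in controls (log2 change 1.85, limma adjusted p = 0.069). Both genes were higher in each day 18 tumour than in any control. Of 14 target genes of the factors YAP and TAZ tested, 3 rose and 2 fell, with a median log2 change of 0.22. The number that fell was 1 without treated day 27 tumour 1, 2 or 4. The shares over all genes were 5.42% higher and 2.50% lower. Cyr61, a matrix protein that YAP switches on, had 184 and 154 at day 18 against 72, 81.9, 47.2 and 48.1 in controls (log2 change 1.46, SE 0.22, limma adjusted p = 0.003). Its call was the only one of the YAP and TAZ list that held with any 1 tumour left out. Egr2 was no longer called without day 18 tumour 1 (limma adjusted p = 0.065).

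Mitosis genes were not called. Of 24 mitosis genes 0 were called, with a median log2 change of 0.10, and the number lower was 1 without control day 6 tumour 1. Mki67, the proliferation marker, had 50.0 and 54.5 at day 18 against 52.3, 49.7, 43.8 and 60.4 in controls (log2 change 0.03, limma adjusted p = 0.91). Of 24 replication genes 4 rose, namely Ccne1, Mcm3, Rrm1 and Rrm2, and the count was 0 without day 18 tumour 2, 1 leaving out day 18 tumour 1, control day 3 tumour 2, either control day 6 tumour, either treated day 3 tumour or treated day 27 tumour 2, 2 leaving out either treated day 6 tumour or treated day 27 tumour 1 and 7 leaving out treated day 27 tumour 3. Against controls 5.42% of all genes were called higher. Ccne1, cyclin E1, had 19.5 and 21.2 at day 18 against 14.8, 11, 9.86 and 9.07 in controls (log2 change 0.83, SE 0.14, limma adjusted p = 0.0075). All 24 mitosis genes and all 24 replication genes were higher at day 18 than at treated day 3, beside 19.2% of all genes. Mki67 had 14.3 and 15.7 at treated day 3, 45.7 and 42.1 at day 6, 50.0 and 54.5 at day 18 and 46.2 to 55.2 at day 27. Ccne1 was no longer called without day 18 tumour 2 (limma adjusted p = 0.074).

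Growth factor and receptor genes rose in 6 of 23 cases (3 without day 18 tumour 1), and the median log2 change was 0.07. None fell (1 without either treated day 3 tumour or either treated day 6 tumour and 2 leaving out control day 3 tumour 1 or control day 6 tumour 1). Over all genes 5.42% were called higher and 2.50% lower. Gas6, the ligand of the receptors AXL, TYRO3 and MERTK, had 221 and 111 at day 18 against 23.5, 7.64, 33.8 and 6.82 in controls (log2 change 3.35, SE 0.59, limma adjusted p = 0.0084). Igf1, a growth factor made by fibroblasts, macrophages and fat, had 34.1 and 28.8 at day 18 against 6.45, 1.82, 10.0 and 5.12 in controls (log2 change 2.40, SE 0.38, limma adjusted p = 0.0046). Both ligands were higher in each day 18 tumour than in any control. Met, the receptor of hepatocyte growth factor, had 31.3 and 40.2 at day 18 against 18.2, 17.2, 24.1 and 25.5 in controls (log2 change 0.73, SE 0.13, limma adjusted p = 0.0081). Ntrk2, a neurotrophin receptor, had 3.8 and 2.44 at day 18 and stayed below 1 in controls (log2 change 1.83, SE 0.16, limma adjusted p = 7.5e-05). Ngfr, the low-affinity nerve growth factor receptor, rested mainly on day 18 tumour 1, with 17.5 and 1.15 at day 18 against 0.118 to 0.534 in controls (log2 change 2.33). Igf2, another insulin-like growth factor, was the sixth that rose. Gas6 and Igf1 were no longer called without day 18 tumour 1 (limma adjusted p from 0.053 to 0.1). Met was no longer called without day 18 tumour 2 (limma adjusted p = 0.091). Ngfr was no longer called without day 18 tumour 1, either control day 3 tumour, control day 6 tumour 2, either treated day 3 tumour, either treated day 6 tumour or any treated day 27 tumour (limma adjusted p from 0.057 to 0.34).

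Among the falls outside these lists, Nrn1 was the deepest. It encodes neuritin, a membrane-anchored protein of neurons, and had 5.64 and 5.63 at day 18 against 64.1, 131, 28.9 and 119 in controls (log2 change -3.49, SE 0.49, limma adjusted p = 0.0022). The day 18 tumours were nearly equal, and every control was several-fold higher. Tmsb15a, a thymosin that binds actin, was listed at 0 in both day 18 tumours against 3.79, 3.46, 7.72 and 6.06 in controls (limma adjusted p = 0.02). Glp1r, the receptor of glucagon-like peptide 1, was not called, with 0.909 and 4.4 at day 18 against 13.1, 72.1, 4.87 and 41.7 in controls (log2 change -2.81, limma adjusted p = 0.059). The mitochondrial transfer RNA gene mt-Tn had 0 and 1.36 at day 18 against 8.87 to 21.1 in controls (log2 change -3.23, limma adjusted p = 0.00083). Tmsb15a was no longer called without either day 18 tumour (limma adjusted p from 0.1 to 0.13).

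Among lists of energy metabolism, oxidative phosphorylation and fatty acid oxidation held 3 rises each and glycolysis and hypoxia held 1. The share of all genes called higher was 5.42%. Of 23 glycolysis and hypoxia genes 1 rose, Pfkfb3 (log2 change 1.19, limma adjusted p = 0.047), a kinase that speeds glycolysis, with a median log2 change of -0.30. Car9, a carbonic anhydrase induced by low oxygen, was low in both day 18 tumours at 3.62 and 3.1, while the controls split into 5.8, 45.7, 5.19 and 39.4 (log2 change -1.95, limma adjusted p = 0.18). Vegfa, the vessel growth factor, followed the same split, with 66.9 and 87.2 at day 18 against 91.7, 315, 91.5 and 298 in controls (log2 change -1.13, limma adjusted p = 0.2), so tumour 2 of each control day was high in both genes. Without control day 6 tumour 1, 3 genes of this list fell, and without control day 3 tumour 1, 1 fell. Of 22 oxidative phosphorylation genes 3 rose, namely Ndufa4, Ndufa9 and Cycs (0 without either day 18 tumour or control day 3 tumour 2, 1 leaving out control day 6 tumour 2 and 6 leaving out treated day 27 tumour 3). Of 22 fatty acid oxidation genes 3 rose, namely Ehhadh, Hadhb and Ucp3 (1 without day 18 tumour 2, 5 leaving out control day 6 tumour 1 and 6 leaving out treated day 27 tumour 3), and none fell (1 without control day 6 tumour 2 or either treated day 6 tumour). Ehhadh, a peroxisomal enzyme of fatty acid oxidation, had 1.99 and 2.73 at day 18 against 0.149 to 0.474 in controls (log2 change 1.38, SE 0.15, limma adjusted p = 0.00053). Pfkfb3 was no longer called without either day 18 tumour, either control day 3 tumour, control day 6 tumour 2, either treated day 3 tumour or treated day 27 tumour 1, 2 or 3 (limma adjusted p from 0.057 to 0.25).

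The differences from the other treated days show which of these changes set day 18 apart from earlier and later treatment. In the same fit 5432 genes (34.3%) differed from treated day 3, 239 (1.51%) from treated day 6 and 1592 (10.0%) from treated day 27, where 1087 were higher (6.86%) and 505 lower (3.19%). Of the 858 genes that rose against controls, 124 were also higher than at each of the other treated days, and of the 396 that fell, 7 were also lower than at each of them. All of these comparisons share the day 18 tumours. The count against treated day 3 was 3009 without day 18 tumour 2 and 3084 without treated day 3 tumour 2, and the count against treated day 6 was 122 without day 18 tumour 2 and 93 without treated day 6 tumour 2. Against day 27 the count was 568 without day 18 tumour 1, 552 without day 18 tumour 2, 907 without day 27 tumour 1 and 812 without day 27 tumour 2. The share of those calls that were higher was 68.3% on the deposited scale, 57.6% after median-of-ratios rescaling and 40.9% after quantile normalisation. Of the 12 adipocyte markers, 12 were higher at day 18 than at treated day 3, 11 than at day 6 and 12 than at day 27. Their summed signal was 197 and 138 at treated day 3, 72.2 and 71.1 at day 6, 3244 and 3363 at day 18 and 20.9 to 31.5 at day 27, where it was close to or below the controls.

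Cfd had 42.5 and 15.5 at treated day 3, 11.6 and 13.5 at day 6, 1737 and 1475 at day 18 and 0.139 to 1.38 over the day 27 tumours. Its day 18 level exceeded day 3 (log2 difference 5.90, limma adjusted p = 0.00097), day 6 (log2 difference 6.89, limma adjusted p = 0.0032) and day 27 (log2 difference 10.12, limma adjusted p = 2.9e-05). The adipsin gene was thus lowest at day 27, below most controls. Hp peaked at day 18 too, with 54 and 67.9 at treated day 3, 20.8 and 46.7 at day 6, 1044 and 987 at day 18 and 0.977 to 2.05 at day 27. Lpl, by contrast, was high at day 3 as well, with 50.7 and 51.7 at treated day 3, 7.15 and 5.04 at day 6, 74.3 and 98.5 at day 18 and 1.06 to 1.2 at day 27. Day 18 and day 3 did not differ past the threshold for Lpl (log2 difference 0.73, limma adjusted p = 0.2). The fibroblast gene Clec3b was likewise high at days 3 and 18, with 33 and 84.2 at treated day 3, 4.26 and 2.59 at day 6, 56.6 and 39.7 at day 18 and 0.342 to 1.25 at day 27. Fos had 37.7 and 70.7 at treated day 3, 25.6 and 24.9 at day 6, 150.0 and 68.2 at day 18 and 3.14 to 5.07 at day 27. Gas6 had 53.1 and 58.2 at treated day 3, 13.4 and 13.6 at day 6, 221 and 111 at day 18 and 3.59 to 10.1 at day 27, and day 18 exceeded day 6 (log2 difference 3.45, limma adjusted p = 0.033). Gas6 against treated day 6 was no longer called without either day 18 tumour or either treated day 6 tumour (limma adjusted p from 0.081 to 0.2).

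**Figure D5:**
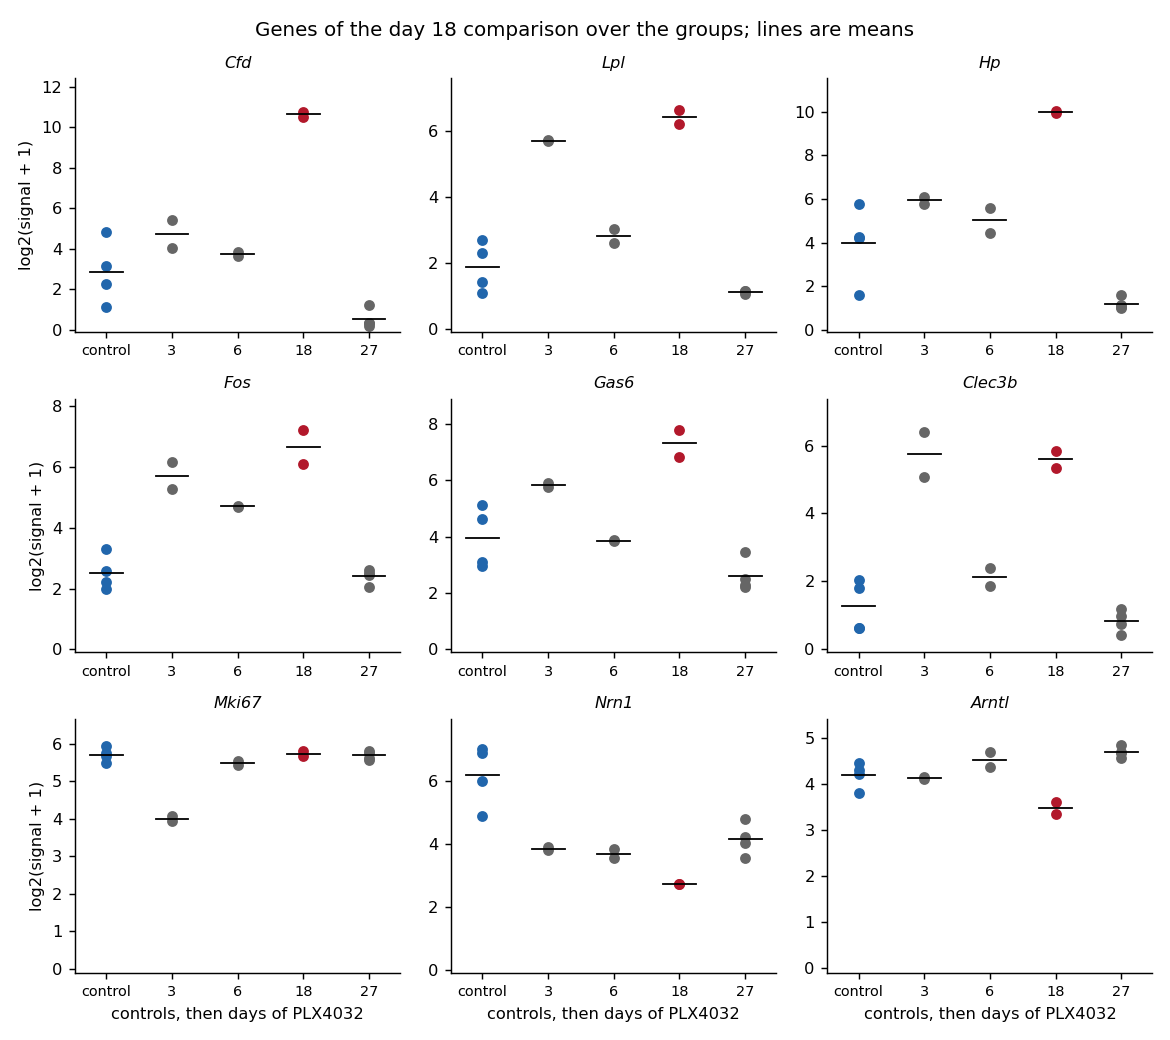
Level of 9 genes on the log2(signal + 1) scale in the 4 controls (blue) and at treated days 3, 6, 18 (red) and 27, each point being 1 tumour and each line a mean. Cfd and Hp peak at day 18, Lpl and Clec3b are high at days 3 and 18, Mki67 dips at day 3, and Arntl is lowest at day 18.

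Few genes were lower at day 18 than at every other treated day. The 7 falls that passed each of these tests were Arntl, Notch2, mt-Tn and the predicted genes Gm10146, Gm9794, Gm46223 and Ct030161.3. Arntl, which encodes the clock factor BMAL1, had 11.2 and 9.27 at day 18 against 18.9, 17.5, 21 and 13 in controls (log2 change -0.71, SE 0.17, limma adjusted p = 0.032), and 16.8 and 16.2 at treated day 3, 25 and 19.7 at day 6 and 22.8 to 27.8 at day 27. Notch2, a Notch receptor, had 14.2 and 14.9 at day 18 against 18.9, 19.1, 24.6 and 22.7 in controls (log2 change -0.52, SE 0.09, limma adjusted p = 0.0076), and both day 18 tumours were below every other tumour of the series. Arntl was no longer called without either day 18 tumour, either control day 3 tumour or treated day 27 tumour 1 (limma adjusted p from 0.052 to 0.17). Notch2 was no longer called without day 18 tumour 1 (limma adjusted p = 0.085).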

How the data were processed

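RNA from 14 flash-frozen SMM102 tumours had been extracted with Trizol and made into Illumina TruSeq RNA libraries, per the labels. A single table was deposited, with a value per gene and tumour. It is called TPM, but its column sums run from 879385 to 1084401 and so differ between tumours, and it is treated here as the authors' signal with an unknown final scaling. Of tools and builds, kallisto, sleuth and mm10 are named in the submitters' processing notes. Tool versions, strand use and read depth are not given in the sources used here, so no counting error can be attached to a value.

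Of 18481 genes listed, 15841 with a signal of 1 or more in at least 2 columns were tested on log2(signal + 1) with limma 3.58.1 in R 4.3.3. All 14 columns entered as 6 groups, with a variance trend and 8 residual degrees of freedom, 3 of them from the 4 day 27 tumours of 2 mice. Columns were mapped to groups by name, and they carry no animal numbers. In the labels 1 animal number stands on both a day 6 control and a treated day 3 tumour, which were fitted as independent here. The contrasts were day 18 minus the mean of the 4 controls, day 18 minus each other treated day, and control day 6 minus control day 3. Calls had a Benjamini-Hochberg adjusted p under 0.05 over all genes tested. Tested on simulated data, the fit recovered most but not all planted changes, and the share required of it was lowered after a first run missed it. The missed genes varied more between tumours.

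The comparison, the gene lists and the named genes were chosen with earlier results of these data known. The text names the 12 rises and 12 falls of largest log2 change among calls where no day 18 value overlapped a control and the higher group averaged at least 5, up to 6 genes with the smallest p of each list, and a fixed set of fat, tumour and immune genes. Among calls that also differed in the same direction from every other treated day, it names up to 8 rises and 8 falls of largest log2 change against controls. Acta1, Adgre1, Cd79a, Cx3cl1, Dcn, Gzmb, Gzmc, Nr1d1, Dbp, Pecam1, Prf1 and Saa3 fall outside this rule and were chosen after their values were seen. Gene positions come from GENCODE on GRCm38, and 96.6% of the symbols matched. Shared words of 31 bases were counted over its transcripts, and promoter sequences come from RefSeq on GRCm38.p6. Alternatives changed the pseudocount, the filter, the scaling, the variance trend, the columns fitted, the control group and, in turn, each tumour. Lep, Ucp1, Csn2, Krt5, Krt14, Mlana and Dct were not analysed here. Some results that were looked at are not reported here.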

Additional observations from a re-analysis of the deposited data

Results flagged for a closer look

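In 8 of 126 genes examined, 1 control tumour stood far from the other 3 relative to their range, where chance flags about 1 in 20 groups. Control day 6 tumour 2 was the lowest control for Acta1 (10.42), Car3 (0.3812) and Saa3 (3.288). Control day 6 tumour 1 was the highest control for Apoc1 (16.1), Klf15 (0.7737) and Mycn (1.112) and the lowest for Mcpt1 (3.281). Control day 3 tumour 2 was the highest control for Dpt (30.32). All 8 values are deposited signals. In the called genes Apoc1, Car3, Klf15 and Dpt, both day 18 tumours lay far above the highest control. In the called gene Mcpt1 the lowest control was only a little above both day 18 tumours. In the called gene Mycn the highest control was below both day 18 tumours, by a smaller factor than in those genes.

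A second set of 15 genes came from those that differed at day 18 from controls and, in the same direction, from each other treated day. Limma tests of the differences themselves were used. Of 124 such rises the 8 with the largest log2 change against controls were taken, so large differences from other days are partly fixed by this choice. All 7 such falls were taken. The fat and secreted genes among them stood far above the treated tumours of day 27, on the log2(signal + 1) scale by 10.12 for Cfd, 8.72 for Car3, 8.80 for Hp, 6.55 for Retn, 6.93 for Adipoq, 6.43 for Cidec and 5.81 for Mup18. The predicted gene Gm21320 was higher by 8.67. Those lower at day 18 than at day 27 differed by -3.29 for Gm10146, -2.47 for mt-Tn, -0.98 for Gm9794, -0.88 for Gm46223, -0.91 for Ct030161.3, -1.21 for Arntl and -0.38 for Notch2.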

How the results depend on the processing

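The direction of every called gene given with values in the text held under each alternative run that tested it, but the number of calls against controls did not. Called genes that are only named were not checked in this way. Of the calls against controls given with values in the text, 47 were lost and 49 kept when only the compared tumours were fitted, 10 were lost without the day 27 tumours, 10 against the day 3 controls alone and 12 against the day 6 controls alone. The number of calls over all genes was 178 with the 6 compared tumours fitted alone, 686 without the day 27 tumours, 761 against the day 6 controls alone and 612 against the day 3 controls alone. With 1 tumour left out in turn it ran from 370 to 2021. Against treated day 6 the count was 130 with a pseudocount of 0.1, 139 with a minimum signal of 5, 57 with the compared tumours alone and 107 without the day 27 tumours, and 93 to 289 with 1 tumour left out. The leave-one-out range was 3009 to 3895 against treated day 3, 552 to 1919 against day 27 and 0 to 31 between the control days. The cause of these shifts was not tested, beyond the fewer tumours in each fit.

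Genes that were not called could change sign. Acta1, day 18 against controls, had a log2 change of -0.21 against the day 3 controls alone and -2.39 to 3.52 with 1 tumour left out. Braf, day 18 against controls, had -0.047 after median-of-ratios rescaling, -0.17 after quantile normalisation and -0.056 to 0.074 with 1 tumour left out. Mki67, day 18 against controls, had -0.039 and -0.055 under those scalings and -0.048 to 0.10 with 1 tumour left out. Dusp6, day 18 against controls, had -0.12 against the day 3 controls alone. With 1 tumour left out, Gzmb, day 18 against controls, ran from -1.09 to 0.46, Mitf, day 18 against controls, from -0.68 to 0.029 and Ddx3y, day 18 against controls, from -0.66 to 0.0037.

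No paired analysis was possible because the columns carry group names and not the animals of the labels. With 2 tumours at day 18, no control of that day and unknown depth, small changes cannot be resolved.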

Other observations

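Genes of growth and of other leukocytes, which belong to no account above, gave scattered calls at day 18. Of 20 Myc and ribosome biogenesis genes 5 rose (0 without day 18 tumour 2, 1 leaving out day 18 tumour 1, control day 3 tumour 2, control day 6 tumour 2 or treated day 27 tumour 1 and 8 leaving out treated day 27 tumour 3), namely Ncl, Nop56, Nop58, Cad and Srm, with a median log2 change of 0.38 against 0.07 over all genes. Over all genes 5.42% were called higher. Mycn, the relative of Myc found in neural crest tumours, had 4.49 and 2.28 at day 18 against 0.156, 0.128, 1.11 and 0.173 in controls (log2 change 1.66, SE 0.27, limma adjusted p = 0.0052). Both day 18 tumours were above all controls. The antimicrobial granule gene Ltf, which encodes lactoferrin of neutrophils and milk, had 4.73 and 21.7 at day 18 against 0.58, 0.0334, 1.15 and 0.175 in controls (log2 change 3.00, SE 0.55, limma adjusted p = 0.0098). Cd209a, a lectin of monocyte-derived dendritic cells, had 5.11 and 7.2 at day 18 against 0.811, 0.133, 3.47 and 0 in controls (log2 change 2.02, SE 0.49, limma adjusted p = 0.033). Ddit4, an inhibitor of mTOR signalling induced by stress and low oxygen, had 36.7 and 36.7 at day 18 against 66.8, 119.5, 88.8 and 135 in controls (log2 change -1.41, SE 0.27, limma adjusted p = 0.012), with both day 18 tumours below all controls. Cd209a was no longer called without either day 18 tumour, control day 3 tumour 2 or treated day 27 tumour 1 (limma adjusted p from 0.051 to 0.16). Ddit4 was no longer called without either day 18 tumour (limma adjusted p from 0.078 to 0.088). Ltf was no longer called without day 18 tumour 2 (limma adjusted p = 0.09). Mycn was no longer called without day 18 tumour 1 (limma adjusted p = 0.069).

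A pair of clock genes is given because Arntl was lower at day 18 than in each other group, so they were chosen after values were seen. Nr1d1, which encodes the repressor REV-ERB alpha, had 35.3 and 36.5 at day 18 against 15.6, 29.9, 10.8 and 39.2 in controls (log2 change 0.73, limma adjusted p = 0.26), and Dbp, an output factor of the clock, had 44.2 and 41.9 at day 18 against 25.2, 21, 13.4 and 71.4 in controls (log2 change 0.66, limma adjusted p = 0.41). The values of Nr1d1 and Dbp overlapped between the groups. No source used here gives the hour of day at which tumours were taken.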
